A study of Nematostella vectensis with 96 samples.

Results

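The starlet sea anemone *Nematostella vectensis*, a burrowing cnidarian without eyes, was compared between day and night under blue light. The libraries were chosen by their labels alone and numbered 24 of the 96 in the series. They comprised 12 animals of the photoperiod, taken at Zeitgeber time (ZT, hours after lights on) 2, 6 and 10, and 12 animals of the scotoperiod, taken at ZT14, ZT18 and ZT22, with 4 animals (replicates A to D) at each time point. All 24 were laboratory-bred adults kept for 1 month in 12 h of blue light and 12 h of dark, left without food for 2 days and then sampled whole, 1 animal per library, every 4 h over 1 day. Both groups therefore shared the light regime and the feeding schedule, and differed in time of day and in whether the lamp was on. Per the study's methods, sampling began at ZT2, so the scotoperiod animals were also taken later in the series. If all animals were last fed together, the scotoperiod animals had fasted longer. These differences cannot be told apart within blue light, and each time point was seen in 1 cycle only. The other libraries of the series came from animals kept on the same schedule in green light, in red light or in constant darkness (DD), 24 in each. Per the study's methods, feeding and water changes of the DD animals were done with the lights off. In DD, photoperiod and scotoperiod name clock hours only. The animals' sex is not labelled, and p-values measure the spread between these animals.

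An animal circadian clock is a feedback loop of transcription in which CLOCK and its partner switch on genes whose products later repress them, with the length of the loop tuned by kinases such as casein kinase 1. Cryptochromes are flavoproteins that absorb blue light and act in this loop as light receptors or repressors, depending on the animal. The PAR-bZIP proteins (basic leucine zipper factors named for a region rich in proline and acidic residues) are clock outputs and regulators in vertebrates and flies, and cnidarians have several of their own.

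The assay was tag-based RNA-seq, in which reads from fragments of each transcript are counted per gene model. The blue photoperiod libraries held 104048 to 632353 counts (median 367498) and the scotoperiod libraries 111676 to 364362 (median 287379). The mean log2 total was higher by 0.37 in the photoperiod, a difference that did not pass a two-sided permutation test (p = 0.151, or 0.0699 on the totals themselves). The least deep libraries were blue ZT10 replicate D (104048), blue ZT14 replicate B (111676) and blue ZT14 replicate D (139670). The first 2 also differed in composition from the other animals of their time points. Chi-square per degree of freedom was 15.3 to 22.3 for pairs with ZT10 replicate D and 12.1 to 14.7 with ZT14 replicate B (median of blue pairs 5.32). Genes of mitochondrial respiration summed to 27309 CPM in ZT10 replicate D (photoperiod median 10623). Ribosomal proteins summed to 28990 in ZT14 replicate B (scotoperiod median 64679). The unit of level is CPM, a gene's share of its library after TMM scaling. A single count was worth 1.48 to 11.1 CPM, depending on the blue library. Since whole animals were lysed, fewer cells that express a gene and less RNA per cell cannot be told apart.

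Few genes were called between day and night in the main test, though 22 were with DESeq2, and a gene not called may still have differed. Of 8737 genes whose counts averaged 3 or more, 6 passed 10% FDR in edgeR's quasi-likelihood test (0.0687% of the genes tested), 4 of them higher (0.0458%) and 2 lower (0.0229%) in the photoperiod. The 4 that rose were *nvhelt*, *nvPAR-bZIPa*, *nvPAR-bZIPd* and NVE5408, a bZIP gene annotated as similar to *nvPAR-bZIPa*. The 2 that fell were *nvPAR-bZIPc* and NVE21843, which has no annotation. Thus 5 of the 12 candidate clock genes were called, 4 upwards and 1 downwards, and the median log2 change over these 12 was 0.65, beside 0.01 over all genes tested. The candidate list was drawn up with results of these libraries known and is not independent evidence of a direction. An unadjusted p under 0.05 was reached by 559 genes (6.4%), of which 278 were higher and 281 lower in the photoperiod.

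**Figure D1:**
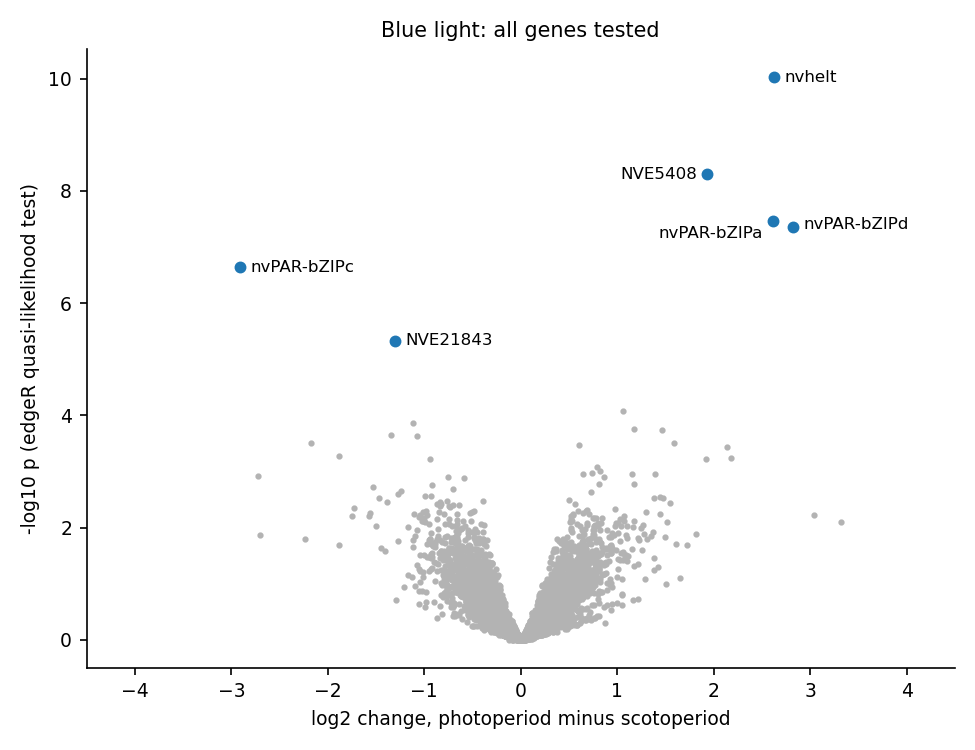
Each point is 1 of the 8737 genes tested in blue light, with the log2 change (photoperiod minus scotoperiod) on the x axis and -log10 of the unadjusted p on the y axis. The 6 genes past 10% FDR are drawn in blue and named: *nvhelt*, NVE5408, *nvPAR-bZIPa* and *nvPAR-bZIPd* lie to the right of 0, and *nvPAR-bZIPc* and NVE21843 to the left.

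The gene with the smallest p was *nvhelt* (NVE8679), a homologue of the vertebrate Helt protein, a basic helix-loop-helix repressor of the Hairy and Enhancer of split type. Its level was 56.5 CPM in the lowest photoperiod library, 140 in the median and 210 in the highest, against 4.04, 18.4 and 63.6 in the scotoperiod. Only the libraries blue ZT10 replicate A (56.5) and blue ZT14 replicate C (63.6) made the groups overlap, and 11 of the 12 photoperiod animals lay above every scotoperiod animal. The log2 change was 2.62 (standard error 0.27, adjusted p = 8.3e-07), or 6.16-fold, from 145 ± 42.3 CPM (SD, n = 12) to 21.7 ± 15.4 (SD, n = 12).

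NVE5408, the bZIP gene similar to *nvPAR-bZIPa*, was at 211, 448 and 665 CPM in the lowest, median and highest photoperiod library and at 32.6, 90.7 and 205 in the scotoperiod. Every photoperiod animal was above every scotoperiod animal. This held for 1 of the 8737 genes (0.0114%). On the log2 scale the change was 1.94 (standard error 0.24, adjusted p = 2.23e-05). The means were 431 ± 151 CPM (SD, n = 12) by day and 106.6 ± 52.1 (SD, n = 12) by night.

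*nvPAR-bZIPa* (NVE14677) was at 11.1, 131.7 and 251 CPM in the lowest, median and highest photoperiod library, and at 0, 15.8 and 54.8 in the scotoperiod. The overlap came from blue ZT10 replicate D, in which the gene had 1 count, and the other 11 photoperiod animals were above every scotoperiod animal. That library had the fewest counts, but it held 11 counts of *nvhelt* and 15 of *nvPAR-bZIPd*. Why its value was low was not tested. The log2 change was 2.62 (standard error 0.35, adjusted p = 9.6e-05).

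*nvPAR-bZIPd* (NVE8085) had the largest rise of the 4, with a log2 change of 2.82 (standard error 0.39, adjusted p = 9.6e-05), or 7.08-fold. The photoperiod libraries ran from 110 to 600 CPM with a median of 239, and the scotoperiod libraries from 9.41 to 110 with a median of 24.0. The lowest photoperiod animal (blue ZT6 replicate C) and the highest scotoperiod animal (blue ZT14 replicate C) met near 110 CPM, and the others did not overlap.

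*nvPAR-bZIPc* (NVE8107), of the same family, moved in the opposite direction. Its level was 0, 6.15 and 25.3 CPM in the lowest, median and highest photoperiod library and 11.5, 42.0 and 128.02 in the scotoperiod, from 27 counts by day and 151 by night in all. The groups overlapped through blue ZT10 replicate B (25.3), and 11 photoperiod animals were below every scotoperiod animal. Its log2 change was -2.91 (standard error 0.43, adjusted p = 0.000401), which is 7.53-fold higher by night. Without ZT6 and ZT18 it was -2.12 and did not pass (adjusted p = 0.554, in a range from 4.42e-08 to 0.554 over 40 alternatives, 39 of which passed).

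NVE21843, the only called gene outside the candidate list, was at 5.63, 12.2 and 18.8 CPM in the lowest, median and highest photoperiod library and at 15.7, 27.4 and 47.1 in the scotoperiod. In the scotoperiod, 10 animals were above every photoperiod animal. Its log2 change was -1.31 (standard error 0.23, adjusted p = 0.00684), on 53 counts by day and 98 by night. The call was lost without ZT6 and ZT18, without ZT10 and ZT22, and when every library was thinned to 100000 counts (log2 change -0.73), and passed in 37 of 40 alternatives (adjusted p from 0.00276 to 1.00).

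**Figure D2:**
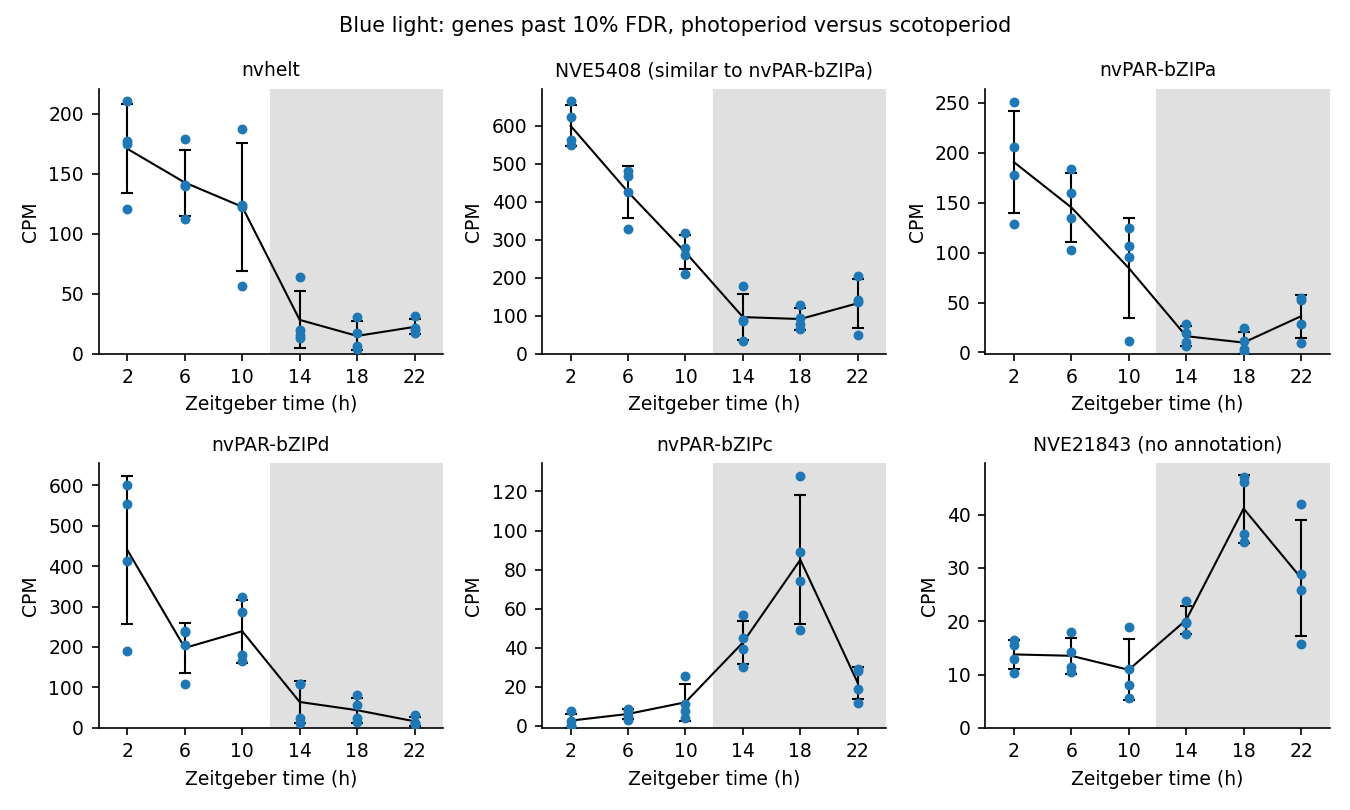
CPM of the 6 called genes (y axes, linear) against Zeitgeber time in hours (x axes), with each of the 24 blue light animals as a point and the mean ± SD of 4 animals in black; grey marks the dark. The 4 genes that rose by day are at their highest mean at ZT2 (600 CPM for NVE5408), and *nvPAR-bZIPc* and NVE21843 at ZT18 (85.01 and 41.1 CPM).

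The 3 time points of each group were not alike in these genes. NVE5408 was at 600 ± 54.2 CPM (SD, n = 4) at ZT2, 426 ± 69.7 at ZT6 and 267 ± 44.7 at ZT10, and then at 96.1 ± 60.8 at ZT14. The 4 animals of ZT2 were above the 4 of ZT6, and those above the 4 of ZT10. *nvPAR-bZIPa* had the same order of means, with 191 ± 51.3 CPM (SD, n = 4) at ZT2, 145 ± 34.9 at ZT6 and 84.6 ± 50.4 at ZT10, but its neighbouring time points overlapped. *nvhelt* was at 171 ± 37.1, 143 ± 27.5 and 122.5 ± 53.5 CPM, with overlapping animals at all 3.

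By night the order differed among the genes. *nvPAR-bZIPc* was at 42.6 ± 11.2 CPM (SD, n = 4) at ZT14, 85.01 ± 33.0 at ZT18 and 21.9 ± 8.30 at ZT22, and NVE21843 at 20.2 ± 2.56, 41.1 ± 6.39 and 28.1 ± 10.8. Both had their highest mean in the middle of the night. *nvPAR-bZIPd* was at 63.9 ± 52.8, 43.6 ± 30.9 and 16.1 ± 10.5 CPM.

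None of these differences inside a group passed the test across all genes. The test of any difference among ZT2, ZT6 and ZT10 called 0 of 8737 genes (0.0%) with edgeR, 430 (4.92%) having an unadjusted p under 0.05, and that among ZT14, ZT18 and ZT22 called 0 (0.0%), with 500 (5.72%). DESeq2's likelihood ratio test called 5 genes by day (*nvCiPC*, NVE24652, NVE15916, NVE4927 and NVE7806) and 2 by night (NVE15554, annotated as cAMP responsive element binding protein 3-like, and NVE10573). The unadjusted p was 0.0232 for NVE5408 by day (adjusted p = 0.992) and 0.000930 for *nvPAR-bZIPc* by night (adjusted p = 0.638).

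Each animal group of the photoperiod was also set against the one sampled 12 h later. All 6 called genes had 1 direction in the 3 pairs (ZT2 and ZT14, ZT6 and ZT18, ZT10 and ZT22), as did 475 of the 559 genes with an unadjusted p under 0.05 and 25.7% of all genes tested. The genes were called on these same animals, so this is a description only. For *nvhelt* the log2 changes were 2.37, 3.07 and 2.49 (standard errors 0.45, 0.48 and 0.45), and a difference among the pairs did not pass (adjusted p = 0.985). For *nvPAR-bZIPa* they were 3.39, 3.63 and 1.35 (standard errors 0.58, 0.59 and 0.51), and for NVE5408 2.55, 2.07 and 1.07 (standard errors 0.38, 0.37 and 0.36). The change of *nvPAR-bZIPc* was -3.92 and -3.94 at the first and second pair and -0.68 at the last (standard errors 0.63, 0.52 and 0.57). *nvPAR-bZIPd* had its largest value at the last pair, 3.90 (standard error 0.60), beside 2.67 and 2.08.

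The test that the change differed among the 3 pairs called 0 of 8737 genes (0.0%) with edgeR and 16 with DESeq2, and 422 (4.83%) had an unadjusted p under 0.05. It gave adjusted p = 0.399 for *nvPAR-bZIPc* and 0.259 for *nvCiPC*, both of which were among the 16 of DESeq2. Without blue ZT10 replicate A, edgeR called 2 genes, NVE15916 and NVE21570, neither of them in the candidate list.

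**Figure D3:**
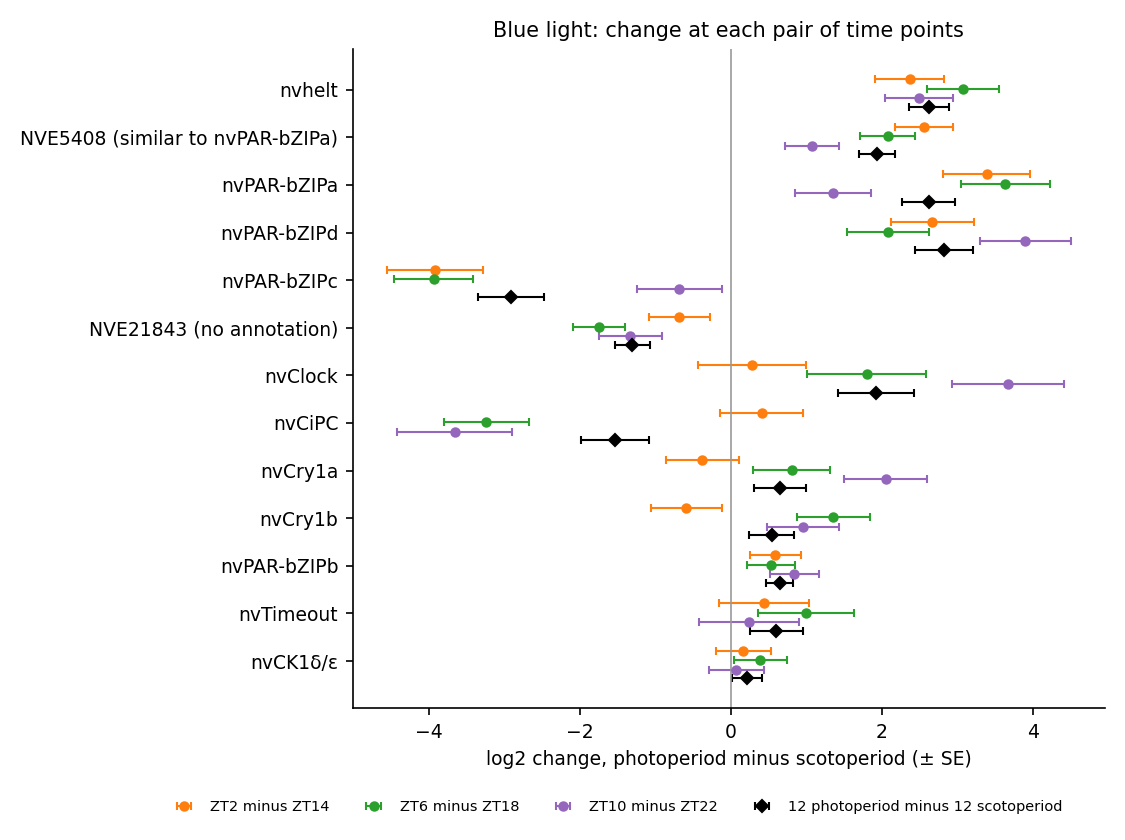
Log2 change, photoperiod minus scotoperiod, with its standard error (x axis) for the 6 called genes and the other 7 candidate clock genes (y axis), at each pair of time points (circles, 4 against 4 animals) and over all 12 against 12 animals (diamonds). The circles of *nvhelt* lie together between 2.37 and 3.07, while those of *nvCiPC* lie between -3.66 and 0.41.

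The remaining 7 candidate clock genes did not pass 10% FDR over the whole day. *nvClock* (NVE2080), the homologue of the activator CLOCK, was at 3.90, 25.4 and 67.9 CPM in the lowest, median and highest photoperiod library and at 0, 5.28 and 24.7 in the scotoperiod. The groups overlapped, with 7 photoperiod animals above every scotoperiod animal and 4 scotoperiod animals without a count. The log2 change was 1.92 (standard error 0.50, adjusted p = 0.265, from 0.0291 to 1.00 over 40 alternatives, 4 of which passed).

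By time point, *nvClock* was at 16.0 ± 11.2 CPM (SD, n = 4) at ZT2, 20.1 ± 9.59 at ZT6 and 53.1 ± 16.2 at ZT10, and at 10.5 ± 10.5, 6.21 ± 7.70 and 3.91 ± 4.57 in the scotoperiod. The high values thus fell late in the light. The log2 change went from 0.28 (standard error 0.71) at ZT2 against ZT14 to 1.80 (0.78) and then 3.67 (0.74) at ZT10 against ZT22. It passed 10% FDR with 2.81 when ZT2 and ZT14 were left out (adjusted p = 0.0852), and with 2.33 without blue ZT14 replicate C.

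*nvCiPC* (NVE4116) is named after the mammalian CLOCK-interacting protein CIPC, a repressor of CLOCK. Its level was 0, 5.78 and 41.1 CPM in the lowest, median and highest photoperiod library and 7.93, 33.4 and 52.5 in the scotoperiod, on 48 and 98 counts. The high photoperiod values were all at ZT2, with 26.0 ± 10.2 CPM (SD, n = 4), beside 4.63 ± 2.27 at ZT6 and 1.41 ± 2.81 at ZT10, where 3 of 4 animals had no count. In the scotoperiod the means were 20.4 ± 9.74 at ZT14, 44.7 ± 8.93 at ZT18 and 30.9 ± 19.8 at ZT22. The log2 change was 0.41 (standard error 0.55) at ZT2 against ZT14, -3.24 (0.56) at ZT6 against ZT18 and -3.66 (0.76) at ZT10 against ZT22.

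Pooling the 3 pairs gave -1.53 for *nvCiPC* (standard error 0.45, adjusted p = 0.481). With the 6 time points as separate groups in the fit, the mean log2 level of the 3 photoperiod time points minus that of the 3 scotoperiod ones was -2.16. This passed (adjusted p = 0.00672). That fit did not count the spread between time points as error. It also weighed each time point alike on the log2 scale, so the estimate itself differed from the pooled one. Leaving out ZT2 and ZT14 gave -3.27 (adjusted p = 0.00135, in a range up to 1.00 over 40 alternatives). Only these 2 of the 40 passed.

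The 2 cryptochromes did not pass either. *nvCry1a* (NVE1138) was at 42.3 ± 8.55 CPM (SD, n = 4) at ZT2, 41.4 ± 9.65 at ZT6, 56.1 ± 25.5 at ZT10 and 50.3 ± 16.3 at ZT14, and then at 21.0 ± 8.03 at ZT18 and 13.2 ± 13.9 at ZT22. The low values were thus late in the dark, and the mean at ZT14 lay within the range of the 3 photoperiod means. Over 12 against 12 animals the log2 change was 0.65 (standard error 0.35, adjusted p = 0.841).

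*nvCry1b* (NVE24214) was at 27.4 ± 9.19, 45.2 ± 22.6 and 40.1 ± 27.6 CPM (SD, n = 4) in the photoperiod and at 37.0 ± 7.25, 15.1 ± 9.14 and 22.8 ± 10.7 in the scotoperiod. Its change was 0.54 (standard error 0.30, adjusted p = 0.862) and was -0.089 in the libraries thinned to 100000 counts. At ZT2 against ZT14 both cryptochromes had negative values, -0.38 (standard error 0.48) and -0.59 (0.47), against positive ones at the later pairs.

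*nvPAR-bZIPb* (NVE20636), another member of the bZIP family, had like values in the 3 pairs, 0.59, 0.53 and 0.84 (standard errors 0.34, 0.32 and 0.32). It was at 44.3, 64.2 and 115.02 CPM in the lowest, median and highest photoperiod library and at 19.6, 49.5 and 67.2 in the scotoperiod, with 5 photoperiod animals above every scotoperiod animal. The change of 0.65 (standard error 0.18) did not pass (adjusted p = 0.374). Of the 5 PAR-bZIP genes, 4 were called (3 higher, 1 lower by day) and this one was not.

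*nvTimeout* (NVE19057), a relative of the fly clock gene timeless, had a change of 0.60 (standard error 0.35, adjusted p = 0.867), and *nvCK1δ/ε* (NVE6915), the kinase that phosphorylates clock proteins in flies and mammals, one of 0.22 (standard error 0.20, adjusted p = 0.916). In both, the animals of the groups overlapped over nearly the whole range, from 0 to 51.7 CPM by day and 0 to 42.4 by night for *nvTimeout*.

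**Figure D4:**
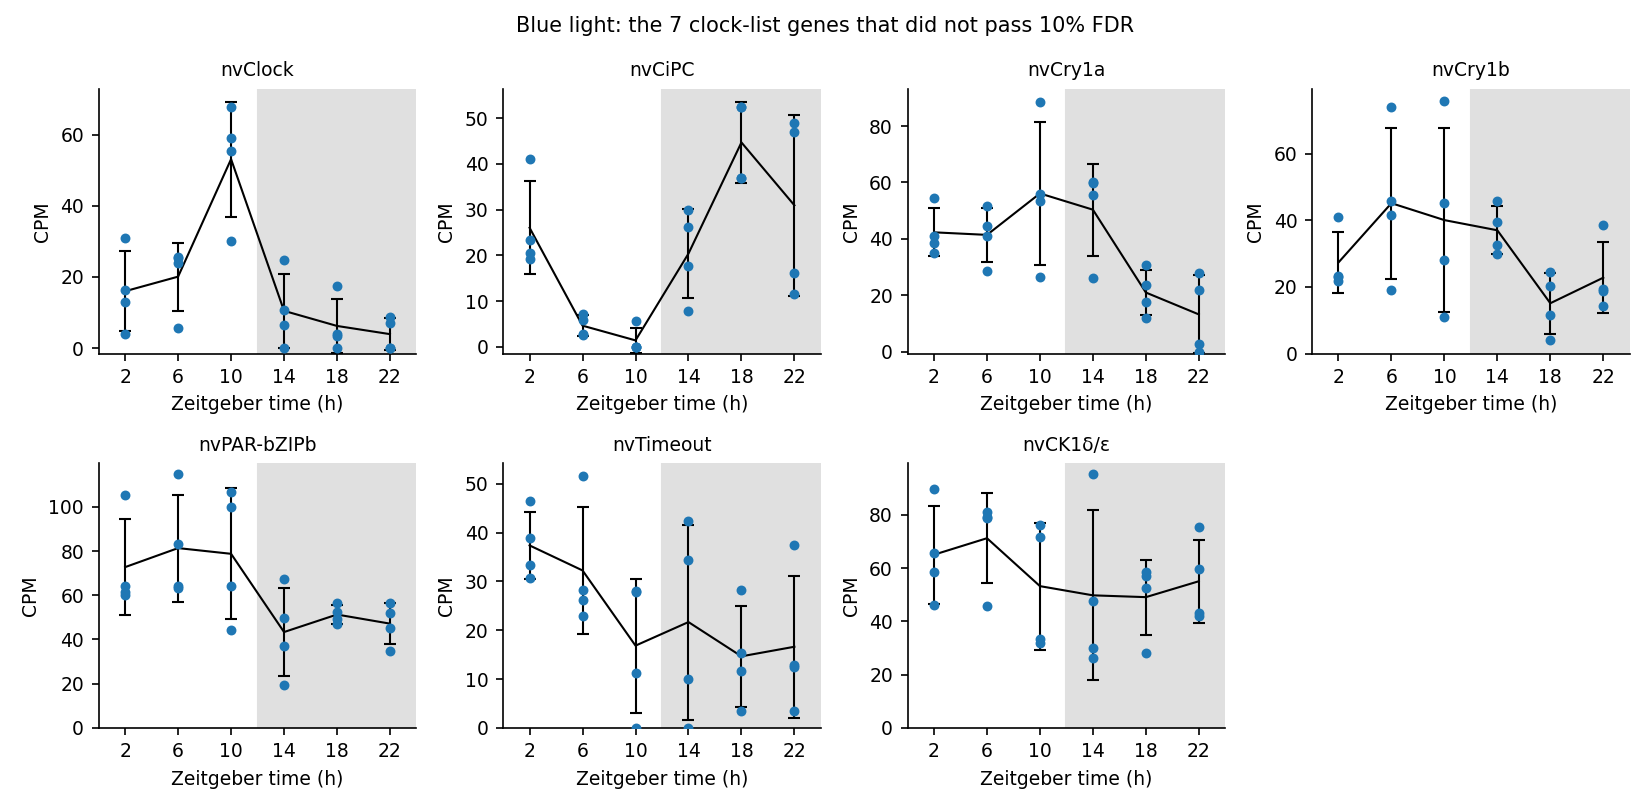
CPM of the 7 candidate clock genes that did not pass 10% FDR (y axes, linear) against Zeitgeber time in hours (x axes), with each animal as a point and the mean ± SD of 4 animals in black; grey marks the dark. The mean of *nvClock* is highest at ZT10 (53.1 CPM), that of *nvCiPC* at ZT18 (44.7 CPM) with ZT10 at 1.41 CPM, and that of *nvCK1δ/ε* lies between 49.1 and 71.2 CPM throughout.

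The same genes were then read in the other light conditions, each fitted on its own, which called 8 genes between photoperiod and scotoperiod in green light (0.0795% of those tested), 21 in red light (0.21%) and 1 in DD (0.0109%). For *nvhelt* the log2 change was 1.56 in green (standard error 0.24, adjusted p = 0.00236), 1.10 in red (0.36, adjusted p = 0.283) and -0.42 in DD (0.42, adjusted p = 0.904), beside 2.62 in blue. Its mean photoperiod level was 145 CPM in blue light against 77.8 CPM under green, 36.4 under red and 14.6 for DD, while the scotoperiod means lay between 16.0 and 26.4 CPM.

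For NVE5408 the change was 1.28 in green (standard error 0.19, adjusted p = 0.00127), 0.13 in red (0.20) and 0.03 in DD (0.28). In red light and DD the 4 group means were 77.9 to 82.5 CPM, below the blue scotoperiod mean of 106.6. *nvPAR-bZIPa* gave 2.08 in green (standard error 0.26, adjusted p = 0.000119), 1.58 in red (0.31, adjusted p = 0.0217) and 0.59 in DD (0.53, adjusted p = 0.883), and was the only gene called in blue, green and red light alike.

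*nvPAR-bZIPc* gave -1.55 in green (standard error 0.31, adjusted p = 0.0526), -0.21 in red (0.36) and -0.39 in DD (0.38). For NVE21843 the values were -0.96, -0.64 and -0.81 (standard errors 0.28, 0.33 and 0.33), none of which passed (adjusted p = 0.305, 0.513 and 0.631). The direction by night was thus the same in all 4 conditions for NVE21843, and the call was made in blue light.

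*nvPAR-bZIPd* stood apart by level. Its mean was 292 ± 155 CPM by day and 41.2 ± 38.3 by night in blue light (SD, n = 12), but 9.61 ± 7.03 and 4.29 ± 4.04 in green, with 17.9 CPM the highest green animal against 110 the lowest of the blue photoperiod. In red light and DD the means were 0.381 to 3.29 CPM, and the 11 libraries of the DD scotoperiod held 1 count in all. The gene was below the count minimum in those 3 fits, and the difference in level between conditions was not tested.

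**Figure D5:**
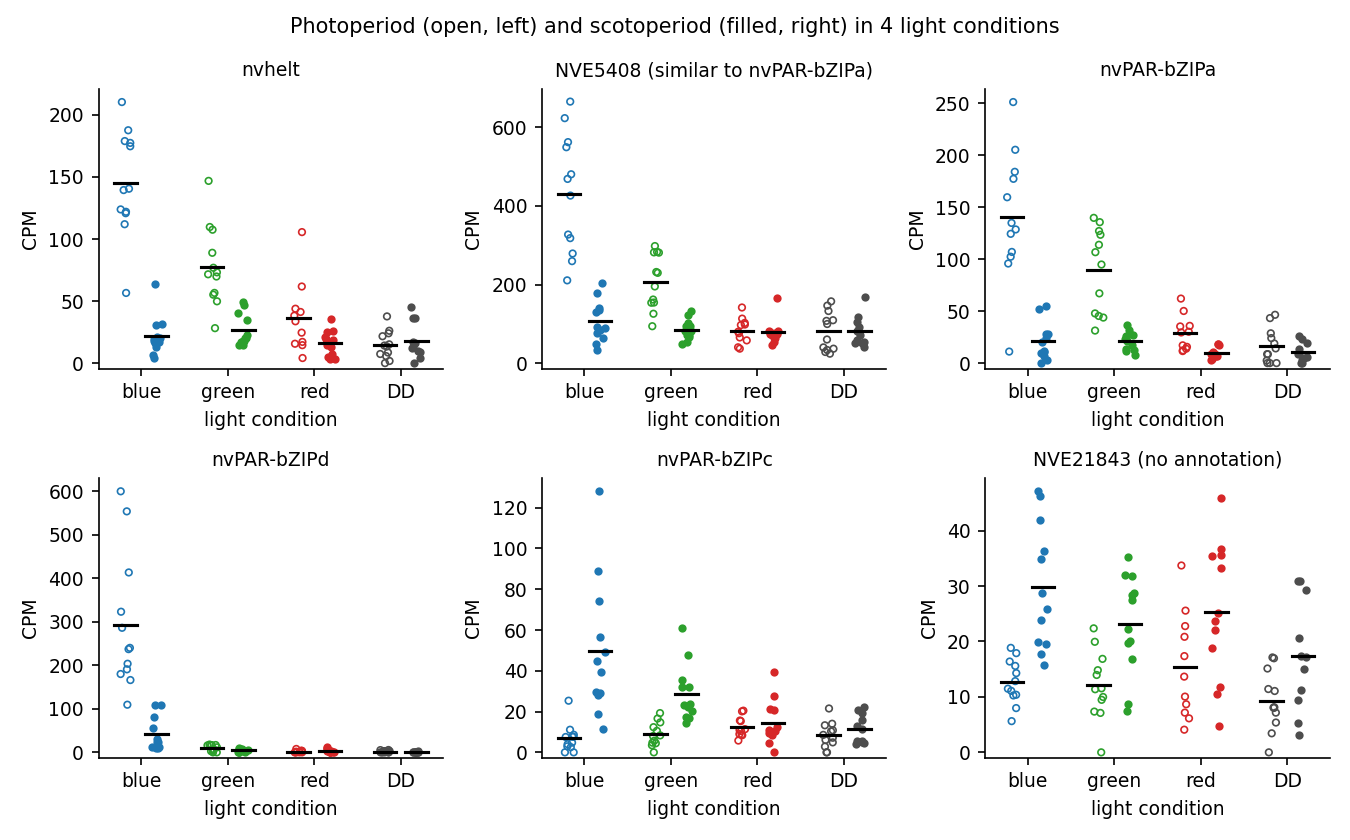
CPM (y axes, linear) of the 6 genes called in blue light, in blue, green and red light and DD (x axes), with each animal as a point (open, photoperiod; filled, scotoperiod; 11 or 12 animals each) and black bars at the means. *nvPAR-bZIPd* is at 292 CPM by day in blue light and at 9.61 or less in the other conditions, while NVE21843 has its higher mean by night in all 4.

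A single fit of all conditions tested whether the day minus night change differed between blue light and each of the others. No gene of 9552 did against green light (0.0% in edgeR and also 0 in DESeq2), and 446 (4.67%) had an unadjusted p under 0.05. Against green, the change in blue was larger by 1.08 for *nvhelt* (standard error 0.45), 0.68 for NVE5408 (0.32) and 1.68 for *nvPAR-bZIPd* (0.69), and by 0.56 for *nvPAR-bZIPa* (0.49), each with adjusted p = 1.00.

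Against red light, 345 genes (3.61%) had an unadjusted p under 0.05 and 2 passed (0.0209%): NVE5408, with a difference of 1.83 (standard error 0.33, adjusted p = 0.00357), and *nvPAR-bZIPc*, with -2.70 (0.55, adjusted p = 0.0166). *nvPAR-bZIPd* differed by 3.38 (standard error 0.82, adjusted p = 0.256). Without replicate A of every group, or without replicate C, no gene passed, and without replicate D only NVE5408 did. The adjusted p of NVE5408 ran from 0.000263 to 0.233 over 11 alternatives and that of *nvPAR-bZIPc* from 0.00256 to 0.496 over 10.

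Against DD, 442 genes (4.63%) had an unadjusted p under 0.05 and 3 passed (0.0314%). *nvhelt* differed by 3.06 (standard error 0.50, adjusted p = 0.000227), NVE5408 by 1.91 (0.34, adjusted p = 0.000760) and *nvPAR-bZIPc* by -2.54 (0.58, adjusted p = 0.0942), while *nvPAR-bZIPa* had 2.05 (0.58) and did not pass (adjusted p = 0.415). Without replicate A of every group, 0 genes passed. *nvPAR-bZIPc* passed in 2 of 10 alternatives (adjusted p from 0.0262 to 0.570), and *nvhelt* and NVE5408 in 10 of 11 each, with ranges of 5.58e-06 to 0.126 and 4.05e-05 to 0.148.

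Beyond the candidate clock genes, 13 lists of annotated genes were counted, and none had a member past 10% FDR. The lists were made by annotation words from genes that the study called on these libraries, so a direction in them is not independent evidence. Among 21 chaperones, which help proteins fold, 5 had an unadjusted p under 0.05 and were higher by day, and 0 were lower (over all genes, 3.18% and 3.22%). Their median log2 change was 0.28, beside 0.01 over all genes. The smallest p belonged to the heat shock genes *nvHSP70E* (NVE2172), at 83.6 ± 24.7 CPM by day and 53.3 ± 19.3 by night (SD, n = 12; log2 change 0.57, adjusted p = 0.629), and *nvHSP70C* (NVE11918), at 100.5 ± 25.7 and 59.98 ± 28.5 (0.65, adjusted p = 0.630).

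Among 79 genes of the cytoskeleton, 7 were higher and 2 lower at an unadjusted p under 0.05, with a median of 0.04. An *alpha-tubulin* (NVE14884), a subunit of microtubules, was at 329 ± 93.1 CPM by day and 207 ± 78.03 by night (SD, n = 12; 0.59, adjusted p = 0.630), and *Microtubule-actin cross-linking factor 1* (NVE3474), which links microtubules to actin, had -0.71 (adjusted p = 0.629). Of 21 translation factors, 3 were higher and 0 lower, led by *eukaryotic translation initiation factor 3* (NVE12149) and *lysyl-tRNA synthetase* (NVE10787), which loads lysine onto its tRNA, with 0.52 each (adjusted p = 0.630 for both).

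Ribosomal proteins had 2 of 36 higher and 2 lower, with a median of -0.05. NVE21340, of this list, had no count in 10 photoperiod and 5 scotoperiod animals and reached 214 CPM in others (-2.23, adjusted p = 0.668), whereas NVE7184 was at 865 ± 227 and 616 ± 184 CPM (0.41, adjusted p = 0.677). Among 37 genes of mitochondrial respiration 0 were higher and 1 was lower, an *ATP synthase subunit* (NVE21177) with -0.62 (adjusted p = 0.720), next to *succinate dehydrogenase* (NVE2309) with -0.44 (adjusted p = 0.866).

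Of 31 proteasome and ubiquitin genes, 1 was lower, *ubiquitin* (NVE16955), the tag for protein degradation, with -0.78 (adjusted p = 0.630), and *E3 ubiquitin-protein ligase DZIP3* (NVE16668) had -0.95 (adjusted p = 0.815). Of 13 antioxidant and stress genes, 1 was lower, *copper/zinc superoxide dismutase* (NVE17376), which removes superoxide, at 22.1 ± 13.1 CPM by day and 37.8 ± 15.8 by night (SD, n = 12; -0.77, adjusted p = 0.668), while *universal stress protein* (NVE14887) had 0.28 (adjusted p = 0.867). The 4 histones had 0 in either direction, with 0.58 and 0.35 for the *histone H2A* genes NVE11853 and NVE18284 (adjusted p = 0.904 and 0.910).

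The extracellular matrix list had the lowest median, -0.20 over 25 genes, with 2 higher and 2 lower. Its *collagen* NVE1443 was at 14.6 ± 5.26 CPM by day and 29.1 ± 14.4 by night (SD, n = 12; -1.08, standard error 0.26, adjusted p = 0.168), and *collagen alpha-3(VI) chain* (NVE24810) at 100.1 ± 17.0 and 124.6 ± 29.5 (-0.39, adjusted p = 0.668). Of 20 digestive enzymes, 0 were higher and 4 lower at an unadjusted p under 0.05. The first was *collagenase* (NVE14551), at 0 to 17.99 CPM by day (median 5.52) and 2.64 to 123.1 by night (median 18.2), with -2.18 (standard error 0.53, adjusted p = 0.196), and the second *cathepsin Z precursor* (NVE4490), a lysosomal protease, with -0.51 (adjusted p = 0.630).

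Lists of 4 kinds stand for cell types of the whole animal, and their median log2 changes were 0.34 for nematocyte products, -0.20 for yolk and lipid transport, -0.13 for neuropeptides and synapse and -0.04 for the digestive enzymes counted above. Nematocyte products, from the stinging cells, were present in every library, and their 5 genes summed to 421 to 1057 CPM by day and 388 to 827 by night, with 1 of 5 higher at an unadjusted p under 0.05, *nvNEP-16a* (NVE8847; 0.66, adjusted p = 0.668), followed by *nvNEP-14* (NVE17430; 0.44, adjusted p = 0.867). The 3 yolk and lipid transport genes had 0 in either direction and summed to 454 to 1524 and 547 to 1378 CPM, with *vitellogenin precursor* (NVE6616), a yolk protein, at -0.26 and *vitellogenin II precursor* (NVE6181) at -0.20 (adjusted p = 0.918 and 0.988). The 17 neuropeptide and synapse genes had 0 in either direction and summed to 488 to 994 and 589 to 997 CPM, with *synaptotagmin VII* (NVE17892) at -0.48 and *RIMS binding protein* (NVE10097) at -0.33 (adjusted p = 0.867 for both). The 20 digestive enzymes summed to 8971 to 15517 and 9797 to 19401 CPM. Their part in the results above was not tested.

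Next to the threshold stood genes chosen here after their values were seen. *Phospholipase A2, group XV* (NVE10565), a lysosomal lipid hydrolase in mammals, was at 88.8 ± 35.1 CPM by day and 40.3 ± 16.2 by night (SD, n = 12; log2 change 1.06, standard error 0.23, adjusted p = 0.103) and passed in 14 of 41 alternatives (adjusted p from 0.00413 to 1.00). *Pyridoxal-phosphate dependent enzyme* (NVE2343) was at 90.9 ± 59.5 and 215.8 ± 87.004 CPM (-1.34, standard error 0.32, adjusted p = 0.168) and passed in 10 of 41. The unannotated NVE8122 had 1.47, NVE18956 1.17 and NVE18057 -1.12 (adjusted p = 0.159, 0.159 and 0.150), and passed in 6 of 40, 4 of 41 and 5 of 41.

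DESeq2 called 22 genes in the comparison of day with night, all 6 of edgeR among them, and the others included *nvClock*, *collagenase*, *collagen* NVE1443 and *phospholipase A2, group XV*. Leaving out ZT2 and ZT14 raised edgeR's count to 15, again with all 6, and leaving out blue ZT14 replicate C raised it to 12. *nvhelt*, NVE5408, *nvPAR-bZIPa* and *nvPAR-bZIPd* passed in each of 41 alternatives, with highest adjusted p of 0.000672, 0.0148, 0.0681 and 0.0408.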

How the data were processed

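Each library was made from 1 whole adult by tag-based RNA-seq. The deposited values are raw counts per gene model: per the study's methods, the authors removed PCR duplicates, used the FastX-toolkit for trimming and quality filtering, aligned what was left by Bowtie2 (version not given in the sources used here) to the *Nematostella* Vienna transcriptome, and counted reads that mapped to a single gene, without pooling replicates. No genome position is given in the sources used here. The sequence of no gene was printed.

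The 12 photoperiod and 12 scotoperiod libraries of blue light were grouped by their labels and compared with edgeR 4.0.16 (TMM, glmQLFit, quasi-likelihood F test; R 4.3.3) on genes whose counts averaged 3 or more, with Benjamini-Hochberg adjustment over all genes tested and a threshold of 10% FDR. This test replaced the DESeq2 Wald test of the study's methods, which was run as an alternative (DESeq2 1.42.0), as was limma-voom (limma 3.58.1). Standard errors are the absolute log2 change over the square root of F. Positive changes are higher in the photoperiod. Other light conditions entered through fits of 94 libraries, since 2 libraries under 10000 counts (1 of red light, 1 of DD) were left out. The least deep library kept was DD ZT6 replicate D, with 25683 counts and 3825 genes detected, where 1 count was worth 24.0 CPM. CPM were scaled by TMM factors over these 94. Total counts were compared with a permutation test (scipy 1.17.1). Scripts were tested on simulated counts.

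Genes were named by rule: all tested candidate clock genes, all called genes, the 3 smallest p among called genes in each other test, and in each other list the 2 smallest p; genes called only by an alternative, and those next to the threshold, were picked once their values were known. The libraries follow from their labels, but the choice of this comparison and of its gene lists and tests was made with earlier results of these data known. Gene names come from the study's tables. Alternatives were normalization, count minimum, tool, model, blocks, thinning to 100000 counts and libraries left out. Depth limits low genes: 3 counts, the limit that a count of 0 allows, correspond to 4.45 to 33.2 CPM in the blue libraries, counting error only.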

Additional observations from a re-analysis of the deposited data

Results flagged for a closer look

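Dixon's criterion was applied to 84 sets of 4 blue light libraries (13 genes and the total counts at 6 time points). In 9 of them a library was far from the other 3. Chance alone would mark about 1 set in 20 if values were independent and normally distributed. Low counts and genes of the same libraries do not meet these conditions, so the 9 cannot be set against that rate. *nvhelt* was at 63.6 CPM in blue ZT14 replicate C, beside 13.1 to 19.9 in the other 3 animals, and *nvPAR-bZIPd* was at 31.7 CPM in blue ZT22 replicate A, beside 9.41 to 13.0. *nvClock* was at 5.74 CPM in blue ZT6 replicate D (others 23.8 to 25.6), and in the same library *nvCK1δ/ε* was at 45.9 CPM (others 78.6 to 80.98). *nvCry1a* was at 26.1 CPM in blue ZT14 replicate D (others 55.5 to 60.1), a library of 139670 counts. *nvCry1b* was at 41.1 CPM in blue ZT2 replicate D (others 21.8 to 23.4), and *nvPAR-bZIPb* at 105.2 CPM in blue ZT2 replicate A (others 60.1 to 64.1). *nvCiPC* was at 5.63 CPM in blue ZT10 replicate B, from 2 counts, with no count in the other 3. Blue ZT2 replicate A had 233951 counts in total, beside 393933 to 403079.

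The change from night to day differed between light conditions by a test of the difference itself in 5 cases. Against red light, NVE5408 was higher by 1.83 on the log2 scale in blue light and *nvPAR-bZIPc* had -2.70. Against DD, *nvhelt* had 3.06, NVE5408 1.91 and *nvPAR-bZIPc* -2.54. The last of these passed in only 2 of 10 alternatives. Without replicate A of every group no gene passed against red light or DD, and without replicate C none passed against red light. The animals of each light condition were kept as 1 group under its own lamp, so a difference between conditions and a difference between these groups cannot be told apart.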

How the results depend on the processing

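The count of 6 genes between day and night was 22 with DESeq2, 10 with no filter on counts and 15 without ZT2 and ZT14, and ran from 6 to 12 with 1 library left out. Without blue ZT10 replicate D and ZT14 replicate B it was 9, as it was without the 3 libraries under 150000 counts, a setting chosen after seeing the data. For a difference among ZT2, ZT6 and ZT10 the count of 0 was 217 with no filter and 5 with DESeq2 (0 to 1 with 1 library left out), among ZT14, ZT18 and ZT22 it was 1.1e+02 (rounded) and 2 (0 to 0), and among the 3 pairs 88 and 16 (0 to 2). Against red light the count of 2 was 1 with a mean count of at least 10 and 1 with only the libraries of the 2 conditions (0 to 2 without 1 replicate letter), and against DD the count of 3 was 5 with DESeq2 (0 to 3). The cause of these changes was not tested.

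Samples with the same replicate letter did not deviate together (correlation -0.17 to 0.38 over 36 pairs, median 0.03), so the letters were not taken as pairs. With the letter as a replicate block, 7 genes were called between day and night and 1 (NVE3442) among the 3 pairs. Among the candidate clock genes, the called genes, the list genes named and those next to the threshold, signs turned for NVE24214 (-0.089, thinned libraries) and for NVE6181 (0.041 with 6 time points as groups, 0.44 without ZT10 and ZT22, 0.032 thinned), none of them called. The least deep libraries limit genes of few counts.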
